A study of Mus musculus with 6 samples.

Results

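The genes described here carry glucose into the β cell, phosphorylate and dephosphorylate it, form the ATP-sensitive potassium (KATP) channel, or belong to the genes that β cells normally keep silent. The 9 members, *Slc2a1*, *Slc2a2*, *Hk1*, *Hk2*, *G6pc2*, *Abcc8*, *Kcnj11*, *Ldha* and *Slc16a1*, were chosen by name for these roles, and their Ensembl identifiers were matched through GENCODE M21 (mouse build GRCm38). All 9 were found among the 53808 genes listed, and 7 of them passed the expression filter, a mean of at least 0.5 TPM over all clones, that left 17823 genes for testing. *Hk1* and *Hk2* were below it.

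RNA was sequenced from 6 clonal lines of MIN6, a mouse insulinoma line that stands in for β cells, to learn which genes depend on *Snd1*, a coregulator that binds the β cell transcription factor PDX1. All 6 lines descend from MIN6 cells that express Cas9 and received a lentiviral gRNA and puromycin selection. In the 3 control clones the gRNA was directed at intron 2 of *Snd1*, and in the 3 *Snd1* KO clones at exon 2. The study screened its clones for SND1 protein by western blot and describes the knockout clones as SND1-deficient. For exon 2 there were 2 gRNAs. If the clone names in the sample labels are those of the study's sequenced clones, 1 gRNA lies behind *Snd1* KO 1 and 2 and the other behind *Snd1* KO 3. Each line was expanded from a single cell and gave 1 library, so a difference between groups is a difference between 3 clones and 3 clones, and the spread within a group is the spread between clones.

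In a β cell, glucose enters through a transporter, is phosphorylated and passes down glycolysis to the mitochondria, and the ATP made there closes the KATP channel. Closure depolarizes the membrane, calcium enters and insulin is released. The flow of pyruvate to mitochondria is favoured by the near absence of lactate dehydrogenase A and of the plasma membrane carrier for lactate and pyruvate, which are the best known of the genes called disallowed in β cells.

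Between 25805139 and 32992674 reads per clone were recovered on genes from the TPM values, more than the study states per library, and whether both reads of a pair were counted is not given in the sources used here. If they were, each read count below stands for fewer fragments. *Snd1* itself had 113, 119 and 112 TPM across Control 1 to 3 against 14.7, 57.1 and 19.9 TPM across *Snd1* KO 1 to 3, with no overlap between the groups (log2 fold change −2.11, standard error 0.45, adjusted p = 0.511, limma). *Snd1* passed the threshold in 2 alternative fits, with an adjusted p of 0.0195 with clones weighted by quality (−2.31) and 0.0405 without *Snd1* KO 2 (−2.67). The clones did not fall into their groups over the 11368 genes averaging 5 TPM or more, compared on log2(TPM + 1). *Snd1* KO 2 and 3 differed at least 2-fold in 248 genes and Control 1 and 2 in 208, whereas Control 3 differed from *Snd1* KO 3 in 446 and from Control 1 in 666. *Snd1* KO 1 differed from each other clone in 676 to 904 genes, and the 8 β cell markers did not move one way in it. *Ucn3* was at 41.6 TPM there and below 1 TPM in the other clones, while *Ins1*, picked out after its values were seen, was lowest there, at 2059 TPM. *Slc30a8* had 191 to 744 TPM in control and 779 to 1005 TPM in *Snd1* KO clones (log2 fold change 1.45, adjusted p = 0.585, limma), and *Ins2* 13976 to 18632 and 11194 to 15716 TPM. The 8 together, mostly *Iapp* and insulin, had 43711 to 77432 TPM in control and 48172 to 82396 TPM in *Snd1* KO clones. *Gcg*, the glucagon gene and an α cell marker, had 174 to 314 TPM in control and 55.2 to 1100 TPM in *Snd1* KO clones, with the highest value in *Snd1* KO 1. Summed markers of δ, PP, acinar, duct, mesenchymal, endothelial and blood cells reached at most 2.92 TPM per list. The part of these differences between clones in the results below was not tested.

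In *Snd1* KO clones the KATP channel genes *Abcc8* and *Kcnj11* averaged 100.3% and 105% of control. *Slc2a2* averaged 41.5% of control and *G6pc2* and *Ldha* averaged 139.8% and 320.2%, and in each of these 3 genes *Snd1* KO 1 lay apart from *Snd1* KO 2 and 3. Of the 7 members tested, 0 were called at an adjusted p under 0.05 with at least a 2-fold change (limma), where 0.00561% of all genes tested, or 1 gene, were called. At an unadjusted p under 0.05 there was 1 member, *Slc2a2*, lower in *Snd1* KO, and 0 were higher, compared with 2.33% of all genes tested that were lower, 5.63% that were higher and 7.96% in all. The count of members whose groups did not overlap was 0, compared with 9.69% of all genes higher, 4.03% lower and 13.7% in all. The median log2 fold change of the 7 was 0.071 beside 0.044 over all genes.

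Levels were also compared between the 9 genes, on TPM recomputed with each exonic base of a gene counted once, since the deposited TPM divides by a length summed over all transcripts and so lowers genes with many of them relative to others. *Ldha*, whose summed length is 4.36 times its exonic length, averaged 2.20 TPM as deposited and 6.01 TPM as recomputed. *G6pc2*, the islet glucose-6-phosphatase, was far above the others, at 4823 to 8732 TPM, and ranked between 7 and 15 among 21967 protein-coding genes. *Abcc8*, the sulfonylurea receptor subunit of the KATP channel, followed at 214 to 314 TPM, and *Kcnj11*, its pore subunit, at 81.4 to 105 TPM. *Slc2a2*, the high-capacity glucose transporter GLUT2, spanned 31.0 to 163 TPM, on both sides of *Kcnj11*. *Slc16a1*, the lactate and pyruvate carrier MCT1, had 7.19 to 19.1 TPM, *Slc2a1*, the transporter GLUT1, 6.40 to 11.9 TPM, and *Ldha*, lactate dehydrogenase A, 0.702 to 14.5 TPM. *Hk1* and *Hk2*, the low-Km hexokinases that most other tissues use, had 0.2503 to 1.52 TPM and at most 0.200 TPM. The ranges of neighbours in this order did not overlap between *G6pc2* and *Abcc8*, *Abcc8* and *Kcnj11*, *Slc2a2* and *Slc16a1*, or *Hk1* and *Hk2*. *Kcnj11* and *Slc2a2* overlapped, as did *Slc16a1*, *Slc2a1* and *Ldha*, and *Ldha* and *Hk1*.

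**Figure D1:**
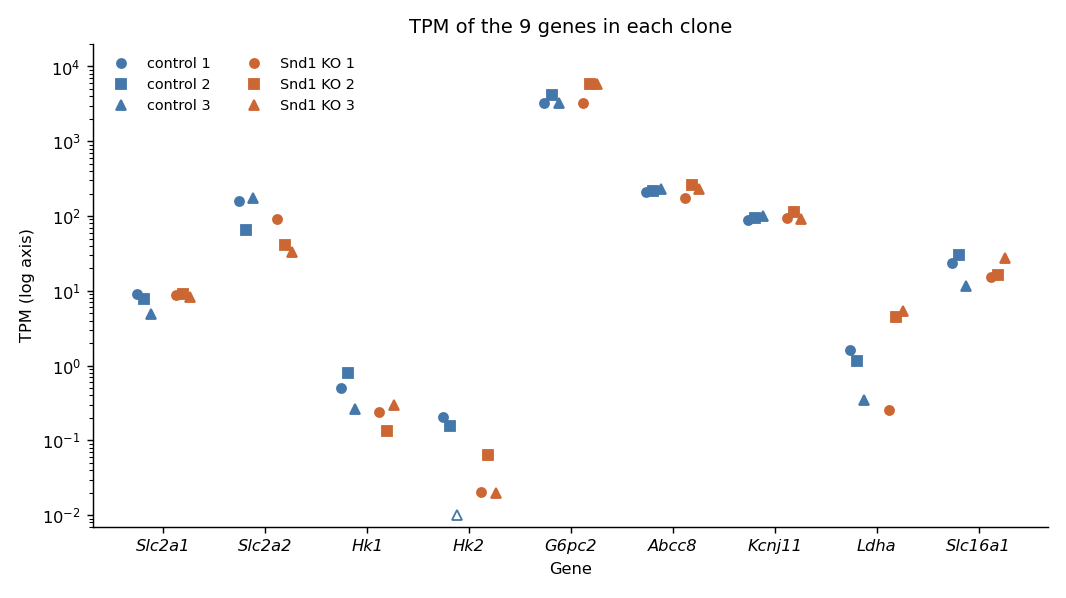
Deposited TPM (log axis) of each of the 9 genes, with 1 point per clone, control in blue and *Snd1* KO in orange, and clone number by shape. The open triangle is *Hk2* in Control 3, listed at 0 and drawn at the foot of the axis. *G6pc2* lay at 3270 to 5870 TPM in every clone, and *Ldha* spread from 0.255 to 5.31 TPM.

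Promoter sequences, from RefSeq on GRCm38.p6, are shown for *Slc2a2* and *Ldha*, the members with the largest span of log2(TPM + 1) over the clones, and for *Slc2a1* and *G6pc2*, the other transporter and the most abundant member. Each line gives the 250 bases before the annotated start, 5′ to 3′ in the direction of the gene. Capitals mark ACGTG, a form of the core of the hypoxia response element, and TAAT, the core that PDX1 and other homeodomain factors bind, each on either strand. The other form of the hypoxia core, GCGTG, was neither marked nor counted, so a window without ACGTG may still hold it. A CACGTG, which reads the same on both strands, is 1 stretch.
*Slc2a1*, chr4:119108495-119108744, plus strand: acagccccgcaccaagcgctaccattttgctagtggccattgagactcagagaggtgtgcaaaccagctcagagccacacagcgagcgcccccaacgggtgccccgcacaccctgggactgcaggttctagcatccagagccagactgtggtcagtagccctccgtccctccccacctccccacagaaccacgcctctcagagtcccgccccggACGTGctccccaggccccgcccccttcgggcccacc
*Slc2a2*, chr3:28697653-28697902, plus strand: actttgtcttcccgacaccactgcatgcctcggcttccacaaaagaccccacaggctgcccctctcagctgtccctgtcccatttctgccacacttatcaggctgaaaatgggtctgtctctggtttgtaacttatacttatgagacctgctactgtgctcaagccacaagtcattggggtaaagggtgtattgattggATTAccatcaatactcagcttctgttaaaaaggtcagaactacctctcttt
*G6pc2*, chr2:69210823-69211072, plus strand: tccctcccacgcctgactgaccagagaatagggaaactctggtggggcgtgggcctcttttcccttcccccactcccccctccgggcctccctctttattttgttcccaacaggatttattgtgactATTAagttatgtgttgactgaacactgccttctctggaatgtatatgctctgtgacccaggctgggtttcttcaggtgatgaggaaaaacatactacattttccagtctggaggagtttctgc
*Ldha*, chr7:46845554-46845803, plus strand: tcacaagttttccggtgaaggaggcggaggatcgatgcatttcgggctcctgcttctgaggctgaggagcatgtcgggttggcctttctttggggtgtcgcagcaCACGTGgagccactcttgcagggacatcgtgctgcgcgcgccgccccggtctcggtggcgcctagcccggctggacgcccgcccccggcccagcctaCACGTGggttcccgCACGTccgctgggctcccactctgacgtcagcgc

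The *Ldha* window held 3 stretches of ACGTG and 25 CG dinucleotides, and 90.4% of 32851 promoters had as many CG or fewer. The *Slc2a2* window held no ACGTG, 1 TAAT and 2 CG (29.0% of promoters had as few), and the *G6pc2* window no ACGTG, 1 TAAT and 3 CG (37.8%). *Slc2a1* had 1 ACGTG, no TAAT and 13 CG. Of all promoters of this length, 16.6% held ACGTG and 54.9% held TAAT, so either motif is common, and a match describes these letters only. Among the members not shown, the *Slc16a1* window had 37 CG and 1 ACGTG and that of *Hk2* 25 CG and 2 ACGTG. The letters depended on the start chosen. The window of a second *Ldha* start held no ACGTG, 1 TAAT and 9 CG, and that of a second *G6pc2* start 1 ACGTG, 3 TAAT and 5 CG. Neither of the 2 starts of *Hk1* had an ACGTG. *Abcc8* and *Kcnj11* had no entry.

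Glucose transporters came first. *Slc2a2* (ENSMUSG00000027690, chromosome 3 from 28697903 to 28731359, plus strand) had 160, 65.0 and 172 TPM across Control 1 to 3, on 7921, 3066 and 7383 reads, against 91.5, 40.5 and 32.8 TPM across *Snd1* KO 1 to 3, on 4090, 1745 and 1513 reads. Control 2 lay below *Snd1* KO 1, so the groups overlapped. *Snd1* KO 2 and 3 lay below every control clone, as in 10.9% of all genes tested. The means were 132 ± 58.5 TPM and 54.9 ± 31.9 TPM (SD, n = 3 each), so *Snd1* KO had 41.5% of control. The log2 fold change was −1.27 (standard error 0.49, 95% interval −2.46 to −0.093, unadjusted p = 0.0382, adjusted p = 0.607, limma), which did not pass the threshold, and the exact permutation test gave p = 0.2, where 3 clones against 3 cannot go below 0.1. With 1 clone left out, the unadjusted p of *Slc2a2* was above 0.05 in 4 of 6 fits, at 0.110 and 0.126 without Control 1 and 3 and at 0.106 and 0.116 without *Snd1* KO 2 and 3. The fewest reads in any clone were 1513, so the spread between clones and not counting error limited the comparison. An annotated antisense gene, *1700112D23Rik*, overlaps *Slc2a2* and had a mean of 3.54 TPM, and the labels do not state that strand was used in counting.

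*Slc2a1* (ENSMUSG00000028645, chromosome 4 from 119108711 to 119137983, plus strand) had 9.10, 7.79 and 4.92 TPM across Control 1 to 3 against 8.85, 9.16 and 8.24 TPM across *Snd1* KO 1 to 3, on 177 to 379 reads. Control 3 lay below the other clones, which were close to each other, and the groups overlapped. The log2 fold change was 0.27 (standard error 0.22, 95% interval −0.26 to 0.80, adjusted p = 0.758, limma), and it was 0.048 without Control 3. Within each clone, *Slc2a2* exceeded *Slc2a1* per length, by 12.7-, 6.06- and 25.4-fold across Control 1 to 3 and by 7.51-, 3.21- and 2.89-fold across *Snd1* KO 1 to 3. The 2 lowest ratios were those of *Snd1* KO 2 and 3, and *Snd1* KO 1 lay between Control 2 and Control 1. The log2 ratio of *Slc2a1* to *Slc2a2* (deposited TPM + 1) was higher by 1.55 in *Snd1* KO (−2.38 ± 0.74) than in control clones (−3.92 ± 0.98, SD, n = 3 each), with an exact permutation p of 0.2 and 0.4 after adjustment over 4 ratios.

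Of 11 other glucose transporters listed, 7 were tested and 0 were called, with a median log2 fold change of −0.18 beside 0.044 over all genes tested. *Slc2a3*, the neuronal transporter GLUT3, had 0.278, 1.22 and 0.117 TPM across Control 1 to 3 against 1.01, 2.49 and 2.60 TPM across *Snd1* KO 1 to 3 (log2 fold change 0.998, standard error 0.38, adjusted p = 0.607, limma). *Slc2a6* and *Slc2a8*, 2 intracellular hexose transporters, were lower in every *Snd1* KO clone, as were 4.03% of all genes, at 6.48 to 10.3 TPM against 11.0 to 12.8 TPM and at 5.18 to 7.28 TPM against 7.61 to 9.14 TPM. Neither passed the test (log2 fold changes −0.42 and −0.39, adjusted p = 0.607 for both, limma). *Slc2a5*, the fructose transporter, was picked out after its values were seen, since at 152 to 200 TPM it exceeded *Slc2a2* per length in every clone, with *Slc2a2* at 0.171- to 0.908-fold of it.

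Among the phosphorylating and dephosphorylating enzymes, *G6pc2* (ENSMUSG00000005232, chromosome 2 from 69211073 to 69227841, plus strand), which returns glucose 6-phosphate to glucose, had 3276, 4132 and 3286 TPM across Control 1 to 3 against 3270, 5806 and 5870 TPM across *Snd1* KO 1 to 3, on 75940 to 146124 reads. *Snd1* KO 1 was at the level of Control 1 and 3. *Snd1* KO 2 and 3 were above every control clone, as in 22.6% of all genes tested. The means were 3564 ± 491 and 4982 ± 1483 TPM (SD, n = 3 each), and the log2 fold change of 0.44 (standard error 0.28, 95% interval −0.24 to 1.12, adjusted p = 0.697, limma; exact permutation p = 0.4) did not pass the threshold. After quantile normalization between clones it was 0.22. *Hk1* (ENSMUSG00000037012, chromosome 10 from 62268855 to 62379908, minus strand) had 0.498, 0.801 and 0.265 TPM across Control 1 to 3 against 0.239, 0.132 and 0.296 TPM across *Snd1* KO 1 to 3, on 74, 113 and 34 and on 32, 17 and 41 reads. Control 1 and 2 were the 2 highest clones and Control 3 lay among the *Snd1* KO clones. *Hk2* (ENSMUSG00000000628, chromosome 6 from 82725025 to 82774454, minus strand) rested on 11, 8 and 0 reads across Control 1 to 3 and only 1, 3 and 1 across *Snd1* KO 1 to 3, that is at or under a floor of 3 reads in Control 3 and every *Snd1* KO clone, so a difference was not detectable at this depth. Without the filter on low values, *Hk1* had a log2 fold change of −0.30 (adjusted p = 0.745, limma; exact permutation p = 0.2), a difference that became −0.89 with a pseudocount of 0.1. Per length, *Hk1* was 4.71- and 9.88-fold of *Hk2* in Control 1 and 2, with no ratio in Control 3, where *Hk2* is listed at 0, against 22.4-, 3.96- and 28.7-fold across *Snd1* KO 1 to 3. The log2 ratio with a pseudocount of 1 TPM differed by −0.19 between *Snd1* KO and control clones (exact permutation p = 0.3, adjusted 0.4). With *Hk2* at or under the floor in 4 clones, no direction is read from this ratio.

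Of 10 other enzymes of hexose phosphorylation and glucose-6-phosphatase function, 7 were tested and 0 were called (median log2 fold change 0.27, and −0.12 among those with a mean of at least 5 TPM). *Pfkfb4* and *Pfkfb3*, which set the level of fructose 2,6-bisphosphate, an activator of phosphofructokinase, were the 2 of the 7 that were higher in every *Snd1* KO clone, beside 9.69% of all genes. *Pfkfb4* had 1.41 to 2.38 TPM in control and 2.45 to 3.52 TPM in *Snd1* KO clones (log2 fold change 0.53, standard error 0.23, adjusted p = 0.607, limma), and *Pfkfb3* 0.341 to 0.540 and 0.693 to 1.302 TPM (0.46, standard error 0.25, adjusted p = 0.642). *Slc37a4*, which carries glucose 6-phosphate into the endoplasmic reticulum where G6PC2 acts, had 26.7 to 28.9 TPM in control and 21.6 to 28.5 TPM in *Snd1* KO clones (−0.22, adjusted p = 0.695). All 16 genes of glycolysis below glucose 6-phosphate were tested and 0 were called, with a median of 0.074, and 3 of them were higher in every *Snd1* KO clone, as were 9.69% of all genes: *Pfkl* and *Pfkp*, subunits of phosphofructokinase, and *Pkm*, a pyruvate kinase. *Pfkl* had 37.6 to 42.4 TPM in control and 47.3 to 49.0 TPM in *Snd1* KO clones (0.28, adjusted p = 0.589), *Pkm* 623 to 635 and 708 to 809 TPM (0.27, adjusted p = 0.607) and *Pfkp* 10.5 to 12.6 and 12.7 to 15.4 TPM (0.25, adjusted p = 0.661, limma for each). *Pfkm*, a further phosphofructokinase gene, was picked out after its values were seen and had a log2 fold change in the other direction. It had 55.9 to 71.1 TPM in control and 42.7 to 63.8 TPM in *Snd1* KO clones (−0.28, adjusted p = 0.700, limma), so the groups overlapped. *Pklr*, the other pyruvate kinase, had the lowest log2 fold change of the list, −0.42 (adjusted p = 0.645).

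The KATP channel genes spanned the least over the clones of the members tested. *Abcc8* (ENSMUSG00000040136, chromosome 7 from 46104523 to 46180033) and *Kcnj11* (ENSMUSG00000096146, chromosome 7 from 46093953 to 46100764) lie 3758 bases apart, both on the minus strand. *Abcc8* had 211, 216 and 232 TPM across Control 1 to 3 against 175, 258 and 227 TPM across *Snd1* KO 1 to 3, on 14183 to 20196 reads. *Snd1* KO 1 was the lowest and *Snd1* KO 2 the highest clone, with the 3 control clones between them. *Kcnj11* had 88.1, 93.5 and 99.9 TPM across Control 1 to 3 against 93.6, 113 and 90.3 TPM across *Snd1* KO 1 to 3, on 2627 to 3069 reads. Control 1 was the lowest and *Snd1* KO 2 the highest clone, and the groups overlapped. The log2 fold change was −0.013 for *Abcc8* (standard error 0.16, 95% interval −0.39 to 0.36, adjusted p = 0.991, limma) and 0.071 for *Kcnj11* (standard error 0.12, 95% interval −0.22 to 0.36, adjusted p = 0.897, limma). On the linear scale these intervals run from 0.762- to 1.29-fold and from 0.859- to 1.28-fold, so a change of 2-fold in either direction lies outside both. Leaving out 1 clone moved *Abcc8* between −0.14 and 0.14 and *Kcnj11* between −0.028 and 0.13, on both sides of 0.

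The ratio of the subunits was nearly constant among control clones, where *Abcc8* was 3.14-, 3.02- and 3.04-fold of *Kcnj11* per length in clones 1 to 3, and it was 2.45-, 2.99- and 3.30-fold across *Snd1* KO 1 to 3. The log2 ratio (deposited TPM + 1) was 1.22 ± 0.029 in control against 1.13 ± 0.22 in *Snd1* KO lines (SD, n = 3 each), a difference of −0.084 (exact permutation p = 0.7, adjusted 0.7) that became 0.036 without *Snd1* KO 1. Among the 11368 genes averaging 5 TPM or more, 20.5% had a smaller span of log2(TPM + 1) over the 6 clones than *Kcnj11* and 47.4% a smaller span than *Abcc8*, compared with 96.4% for *Slc2a2*. The other KATP subunits, *Kcnj8* and *Abcc9*, which serve the channel of muscle and vessels, were below the filter, with a summed level of at most 0.243 TPM in any clone. Within *Abcc8* lie *Gm45487*, on the same strand with a mean of 33.8 TPM, and the antisense gene *Gm45486* with 5.55 TPM, so reads could be shared between them.

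The disallowed genes varied more. *Ldha* (ENSMUSG00000063229, chromosome 7 from 46841475 to 46855627, plus strand) had 1.63, 1.16 and 0.350 TPM across Control 1 to 3 against 0.255, 4.51 and 5.31 TPM across *Snd1* KO 1 to 3. The reads behind them were 135, 91 and 25 against 19, 323 and 408, so the highest clone was 20.8-fold above the lowest, and both of these were *Snd1* KO clones. *Snd1* KO 2 and 3 lay above every control clone and *Snd1* KO 1 below them all. The means were 1.05 ± 0.65 and 3.36 ± 2.72 TPM (SD, n = 3 each), and the log2 fold change was 0.83 (standard error 0.65, 95% interval −0.71 to 2.38, adjusted p = 0.754, limma; exact permutation p = 0.4). *Ldha* has processed copies in the mouse genome, so its low read counts are uncertain by what the authors' counting assigned to them. *Slc16a1* (ENSMUSG00000032902, chromosome 3 from 104638668 to 104658462, plus strand) had 23.7, 30.4 and 11.5 TPM across Control 1 to 3 against 15.2, 16.4 and 27.7 TPM across *Snd1* KO 1 to 3, on 251 to 733 reads. Control 3 was the lowest and Control 2 the highest clone, and the *Snd1* KO clones lay between them (log2 fold change −0.087, standard error 0.38, 95% interval −1.002 to 0.83, adjusted p = 0.965, limma). The sign of this value turned in 4 of the 6 fits that left out 1 clone.

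The log2 ratio of *Ldha* to *Slc16a1* (TPM + 1) was −3.43 ± 0.37 in control against −2.51 ± 1.06 in *Snd1* KO lines (SD, n = 3 each), a difference of 0.92 (exact permutation p = 0.3, adjusted 0.4). Leaving out *Snd1* KO 1 raised this difference to 1.51, and leaving out *Snd1* KO 2 lowered it to 0.49. Per length, *Ldha* was 0.300-, 0.166- and 0.133-fold of *Slc16a1* across Control 1 to 3 against 0.073-, 1.1997- and 0.835-fold across *Snd1* KO 1 to 3, above *Slc16a1* in *Snd1* KO 2 alone. Of 18 other genes of pyruvate and lactate handling, 14 were tested and 0 were called (median log2 fold change 0.030). *Ldhd*, a mitochondrial lactate dehydrogenase for D-lactate, was the 1 gene of the 14 higher in every *Snd1* KO clone, beside 9.69% of all genes, at 7.69 to 11.1 TPM against 4.66 to 6.90 TPM (log2 fold change 0.58, standard error 0.21, adjusted p = 0.594, limma). *Slc16a3*, the lactate exporter MCT4, was picked out after its values were seen and had 0.635, 0.386 and 1.91 TPM across Control 1 to 3 against 1.27, 5.09 and 6.67 TPM across *Snd1* KO 1 to 3 (1.34, standard error 0.52, adjusted p = 0.607). *Snd1* KO 2 and 3 were thus the 2 highest clones for both *Ldha* and *Slc16a3*. They lay above every control clone in 22.6% of all genes tested. *Dlat*, a subunit of pyruvate dehydrogenase, had the lowest value of the list, −0.12 (adjusted p = 0.897).

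Of 14 other disallowed genes, 8 were tested and 0 were called, with a median of −0.31 that turned to 0.11 among those with a mean of at least 5 TPM. *Pdgfra*, a growth factor receptor, had 17.0, 7.28 and 2.19 TPM across Control 1 to 3 against 0.0235, 0.0326 and 0.0987 TPM across *Snd1* KO 1 to 3, and *Igfbp4*, an IGF binding protein, 4.38, 1.24 and 0.911 TPM and 0.0819, 0.142 and 0.317 TPM. Both, of the 8 tested, were lower in every *Snd1* KO clone (4.03% of all genes were) without passing the test (log2 fold changes −2.89 and −1.27, adjusted p = 0.450 and 0.585, limma). *Pdgfra* and *Igfbp4* are also expressed by mesenchymal cells, and the mesenchymal markers summed to 0.0754 to 2.79 TPM in control and 0.311 to 0.440 TPM in *Snd1* KO clones. Their part in the result was not tested. *Cat*, which encodes catalase, had 5.36 to 12.3 TPM in control and 7.59 to 12.5 TPM in *Snd1* KO clones (0.14, adjusted p = 0.930). The 9 genes of the redox shuttles, which pass cytosolic NADH to the mitochondria in place of lactate dehydrogenase, were all tested and 0 were called (median 0.025), and *Slc25a13* was at 2.75 TPM in *Snd1* KO 1 and at most 0.209 TPM in the other clones (0.52, adjusted p = 0.797). *Slc25a12* had the lowest value of the list, at 45.4 to 51.9 TPM in control and 35.5 to 47.3 TPM in *Snd1* KO clones (−0.21, adjusted p = 0.701, limma for both).

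**Figure D2:**
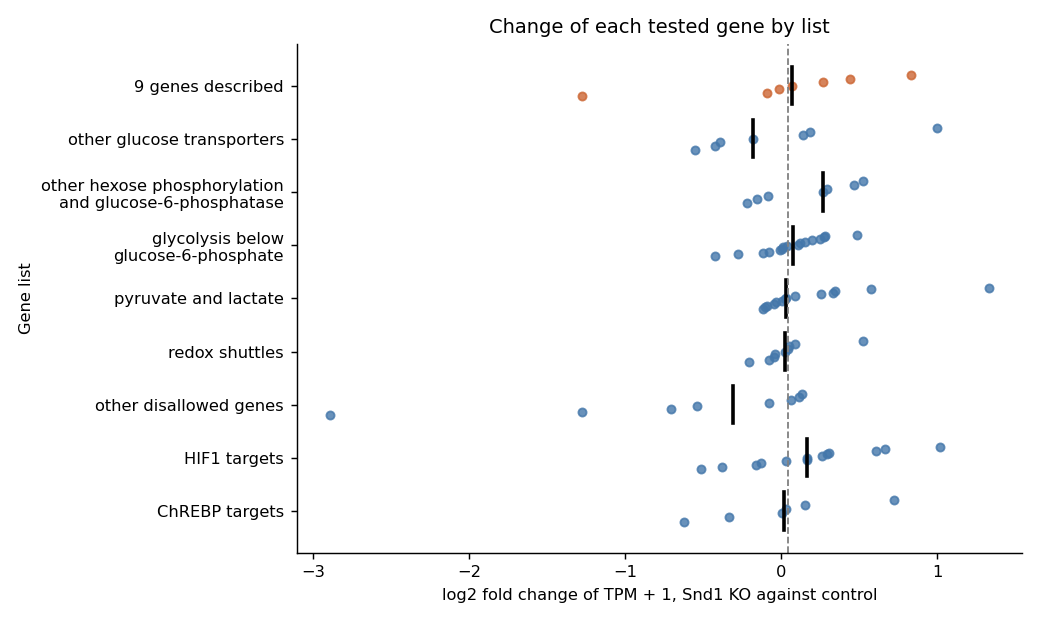
Log2 fold change of TPM + 1 (*Snd1* KO against control, limma) of each tested gene, by list. Each point is a gene, thick bars are list medians and the dashed line is the median of all 17823 genes tested (0.044). Most genes lay within 1 of 0 on the log2 scale, with *Pdgfra* at −2.89 the farthest.

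Genes that respond to hypoxia or to glucose were looked up beside *Ldha* and *G6pc2*. Of 14 targets of HIF1, the hypoxia-inducible factor, outside glycolysis, 13 were tested and 0 were called (median 0.17, and 0.37 without *Snd1* KO 1 and 0.087 without *Snd1* KO 3). *Ankrd37* had 1.13 to 2.54 TPM in control and 3.34 to 6.06 TPM in *Snd1* KO clones, and *Mxi1* 5.17 to 7.22 and 7.28 to 12.3 TPM, without overlap, which with higher values held for 9.69% of all genes (log2 fold changes 1.02 and 0.66, adjusted p = 0.568 and 0.585, limma). *Egln3*, an oxygen sensor, went the other way, at 27.6 to 77.2 and 33.8 to 37.5 TPM (−0.52, adjusted p = 0.719). All 6 genes listed for ChREBP, the glucose-responsive factor, and its targets were tested and 0 were called (median 0.018). *Mlxipl*, which encodes ChREBP, had 55.3, 43.1 and 65.3 TPM across Control 1 to 3 against 52.0, 136 and 101 TPM across *Snd1* KO 1 to 3 (0.72, adjusted p = 0.609). *Txnip*, a ChREBP target, had 25.1, 24.8 and 34.5 TPM across Control 1 to 3 against 31.5, 16.0 and 10.8 TPM across *Snd1* KO 1 to 3 (−0.62, adjusted p = 0.673). In both genes *Snd1* KO 2 and 3 lay outside the range of the other clones, *Mlxipl* above and *Txnip* below it. Against the control clones alone, these 2 clones lay above every one in 22.6% of all genes tested and below every one in 10.9%.

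No member was called with voom on the recovered reads or with clones weighted by quality, where 895 genes were called and *Slc2a2*, *G6pc2* and *Ldha* came to adjusted p values of 0.0612, 0.0642 and 0.0563 (limma). In the weighted fit 5810 of 17823 genes had an unadjusted p under 0.05. Its weights were 1.87, 2.54 and 0.279 across Control 1 to 3 against 0.286, 0.672 and 3.91 across *Snd1* KO 1 to 3, so that *Snd1* KO 1, which departs from the other *Snd1* KO clones in these 3 genes, and Control 3 counted least.

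**Figure D3:**
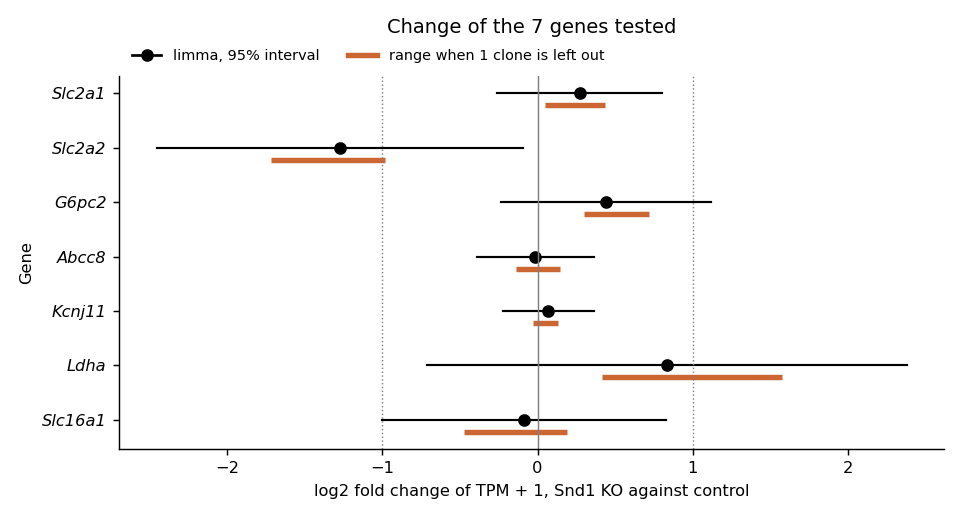
Log2 fold change of TPM + 1 of the 7 members tested, *Snd1* KO against control, with its 95% interval (black, limma) and the range of values when 1 clone is left out (orange). Dotted lines mark a 2-fold change. The interval of *Slc2a2*, −2.46 to −0.093, was the only one that left out 0.

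In *Slc2a2*, *G6pc2* and *Ldha*, *Snd1* KO 1 departed from the other *Snd1* KO clones. Without it, a fit singled out after the values were seen from the 6 that each left out 1 clone, the log2 fold change was −1.71 for *Slc2a2* (standard error 0.44, unadjusted p = 0.00958, adjusted p = 0.226), 0.72 for *G6pc2* (standard error 0.20, unadjusted p = 0.0128, adjusted p = 0.244) and 1.58 for *Ldha* (standard error 0.34, unadjusted p = 0.00440, adjusted p = 0.188, limma for each). These 3 of the 7 members had an unadjusted p under 0.05 and groups that did not overlap, compared with 14.3% and 33.5% of all genes tested for these criteria in turn, in the same 5 clones (no overlap with higher values in 22.6% and with lower values in 10.9%). The fit was singled out after *Snd1* KO 1 was seen to depart in these same 3 genes, so nothing is concluded from their count. *Snd1* KO 2 and 3 were also the closest pair over the 9 members, with a root mean square difference of 0.31 in log2(TPM + 1), while *Snd1* KO 1 differed by 0.43 to 0.51 from the control clones and by 0.88 and 1.005 from *Snd1* KO 2 and 3. By *Snd1* RNA level the order was different. *Snd1* KO 2 was the highest of the *Snd1* KO clones at 49.8% of the control mean, with *Snd1* KO 3 at 17.3% and *Snd1* KO 1 at 12.9%. These are levels of RNA and not of SND1 protein, which these data do not measure.

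**Figure D4:**
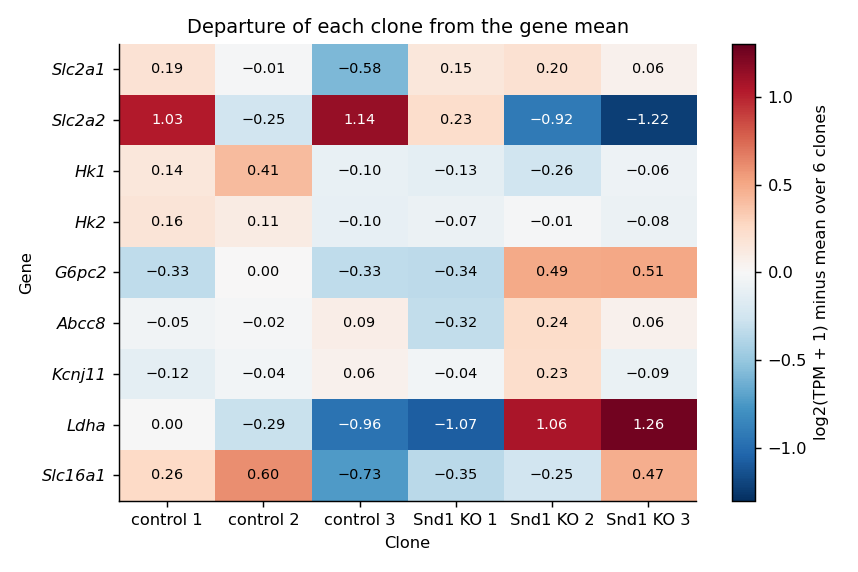
Log2(TPM + 1) of each member in each clone minus its mean over the 6 clones, in red above and in blue below the mean. *Slc2a2* is lowest and *G6pc2* and *Ldha* are highest in *Snd1* KO 2 and 3, whereas *Abcc8* and *Kcnj11* stay within 0.32 of their means.

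For the 3 members whose log2(TPM + 1) spanned at least 1 over the clones, the genes with the most similar pattern were found among the same 11368 genes averaging 5 TPM or more, by the root mean square difference of centred log2(TPM + 1) over the 6 clones. *Tmem121b* (0.30), *Npy* (0.35) and *Sstr5* (0.37) were closest to *Slc2a2*. *Npy*, which encodes neuropeptide Y, had 28619, 19690 and 30551 TPM across Control 1 to 3 against 19236, 13564 and 8588 TPM across *Snd1* KO 1 to 3. *Folr1* (0.26), *Serpina1c* (0.29) and *Rab6b* (0.30) were closest to *Ldha*. *Rab6b*, which encodes a small GTPase of Golgi traffic, had 12.7, 15.5 and 7.56 TPM across Control 1 to 3 against 9.07, 23.5 and 40.0 TPM across *Snd1* KO 1 to 3, so its lowest clones were Control 3 and *Snd1* KO 1, as for *Ldha*. *Elk3* (0.044), *Klf12* (0.11) and *Pkia* (0.13) were closest to *Slc16a1*. *Elk3*, which encodes an ETS factor, had 30.0, 35.3 and 14.6 TPM across Control 1 to 3 against 18.2, 20.04 and 32.7 TPM across *Snd1* KO 1 to 3. These genes share their libraries with the members and were picked from many, so their likeness is a description over 6 clones.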

How the data were processed

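RNA from 3 intron-targeted control and 3 *Snd1* KO MIN6 clones was analysed, with 1 library per clone and with groups and clone numbers from the sample labels. The authors prepared libraries with a Takara cDNA kit and Nextera XT, used the Genialis platform and deposited gene-level TPM, that is reads divided by gene length and scaled to a sum of 1000000 per library, a unit that does not state the depth. The submitters' processing notes name mm10, FastQC, Trimmomatic, HISAT2, HTSeq and DESeq2 without versions, and whether counting used strand is not given in the sources used here. TPM times the summed length of all transcripts gave whole reads (within 0.01) for 93.54% of values above 0, and 99.98% after a search for the length, so the depth of 25805139 to 32992674 reads on genes was recovered, where a read may be 1 mate of a pair. Intervals of detection (a floor of 3 reads) cover counting error only. Libraries held at most 1.02 TPM of the 92 ERCC controls, which were left out. GENCODE M21 matched 53706 identifiers.

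From the deposited TPM, log2(TPM + 1) was compared by limma 3.58.1 in R 4.3.3 (lmFit, eBayes with trend, Benjamini-Hochberg over the 17823 genes averaging 0.5 TPM or more), with a threshold of adjusted p under 0.05 and 2-fold. A fold change on this scale understates the change of low genes. The fit was tested on simulated data. The limma p-values set the difference between groups against the spread between clones, moderated over all genes tested. Single values and within-clone ratios were compared with two-sided exact permutation tests. Python 3.11.15 with numpy 2.4.6, pandas 2.3.3, scipy 1.17.1 and matplotlib 3.10.9 served for tables and plots.

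The members and gene lists were chosen with earlier results of these data known. Named genes were the members, *Snd1*, and from each list the called genes, up to 3 genes per direction with the largest change among those without overlap or, failing these, the highest and lowest log2 fold change, and 3 genes per member for likeness. Markers of other cell types are given as sums, except the α cell marker *Gcg*, which is given alone. Other genes are marked as picked after their values were seen. The alternatives were pseudocounts of 0.1 and 0.01, no filter or a mean of at least 5 TPM, 3 other scalings, eBayes without or with a robust trend, weights for clone quality, a block by clone number, voom on recovered reads, other thresholds, ratios from TPM with each exonic base counted once and leaving out each clone, and, added after seeing the data, levels from that TPM and overlap without *Snd1* KO 1.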

Additional observations from a re-analysis of the deposited data

How the results depend on the processing

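Over the 20 alternatives that gave a count, 0 members were called in each. The count of all genes called was 1 in the comparison as reported and moved to 0 with no filter, with no mean-variance trend, with voom on the recovered reads and with the replicate block, to 2 at an adjusted p under 0.1, to 895 with clone quality weights, and lay between 0 and 2 when 1 clone was left out. *Slc2a1*, *Slc2a2*, *G6pc2* and *Ldha* kept their direction and stayed above the threshold of 0.05 in adjusted p in all of theirs, with ranges of 0.048 to 0.43, −1.72 to −0.98, 0.30 to 0.72 and 0.41 to 1.58 in log2 fold change when 1 clone was left out. Outside these ranges, *G6pc2* was 0.22 after quantile normalization, where *Abcc8* was −0.024. *Abcc8* reversed to 0.039 on rescaling without insulin and mitochondrial genes, to 0.085 with clone quality weights, to 0.027 without Control 3 and to 0.14 without *Snd1* KO 1 (range with 1 clone left out −0.14 to 0.14), *Kcnj11* to −0.028 without *Snd1* KO 2 (−0.028 to 0.13), and *Slc16a1* to 0.020, 0.19, 0.066 and 0.017 without Control 1, Control 2, *Snd1* KO 1 and *Snd1* KO 2 (−0.47 to 0.19). The log2 ratio of *Abcc8* to *Kcnj11* lay between −0.18 and 0.036 with 1 clone left out and turned to 0.036 without *Snd1* KO 1. The cause of these changes was not tested. With 1 clone left out, the list medians lay between −0.26 and −0.11 for other transporters, 0.20 and 0.35 for hexose phosphorylation, 0.026 and 0.14 for glycolysis, 0.025 and 0.11 for pyruvate and lactate, −0.50 and −0.15 for disallowed genes and 0.087 and 0.37 for HIF1 targets. They turned sign for redox shuttles (−0.067 without *Snd1* KO 1, −0.018 without Control 2) and ChREBP targets (−0.053 without Control 3, −0.079 without *Snd1* KO 3). The log2 ratio lay between 0.49 and 1.51 for *Ldha* to *Slc16a1* and 1.07 and 2.05 for *Slc2a1* to *Slc2a2*. The ratio of *Hk1* to *Hk2* rests on *Hk2* at or under the floor of 3 reads in 4 clones, so its range (−0.25 to −0.089) says nothing about stability. The unadjusted p of *Slc2a2* rose above 0.05, to 0.0505, with no mean-variance trend and in 4 of the 6 fits without 1 clone.

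With the replicate block by clone number, 0 genes were called and *Slc2a2* had an unadjusted p of 0.0141 and an adjusted p of 0.736 (limma). Deviations from the group means correlated at 0.12, −0.20 and −0.11 between clones of the same number, and Control 2 and Control 3 correlated best with another number, so the numbers do not pair the clones. Depth limits *Hk2*. *Hk1*, on 17 to 113 reads, moved from −0.30 to −0.89 and −1.13 with pseudocounts of 0.1 and 0.01, further than with 1 clone left out (−0.43 to −0.17). The spread between clones limits the 7 members tested. The median log2 fold change of all genes lay between −0.011 and 0.090 over the alternatives.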
